A study of Arabidopsis thaliana with 18 samples.

Results

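Calmodulin-like proteins bind calcium through EF-hand loops, as calmodulin does, and are thought to pass a rise of cytosolic calcium on to other proteins. The transcript levels of 10 genes of this family were followed in Arabidopsis leaves: CML12 (also TCH3, AT2G41100), CML24 (TCH2, AT5G37770), CML37 (AT5G42380), CML38 (AT1G76650), CML39 (AT1G76640), CML40 (AT3G01830), CML41 (AT3G50770), CML42 (AT4G20780), CML43 (AT5G44460) and CML47 (AT3G47480). They were taken by locus code as calmodulin-like genes linked to stress. No measured value entered that rule, but earlier results of these data were known when the genes were chosen. The count table held 32678 genes, of which 20023 passed a filter on low counts, and the 10 genes were found in the table and passed the filter. CML39 and CML43 passed only through shifted leaves of the transgenic line, since CML39 had at most 20 counts and CML43 at most 1 count in a Col-0 library.

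The libraries came from leaves of 35S:RPS4-HS plants (35S:RPS4 below), which carry an RPS4 transgene driven by the viral 35S promoter in the Col-0 background, and of Col-0 wild-type plants. RPS4 is an intracellular immune receptor of the TNL class. In this line it stays restrained in warm-grown plants and becomes active when they are moved to a lower temperature, with no pathogen added. Plants of both genotypes grew for 3.5 weeks at 28 °C and were sampled without a shift (0 h) or after 4 h or 8 h at 19 °C, which gave 6 groups of 3 libraries. The 35S promoter is strong and active in most leaf cells, and the cells in which it acts may differ from those of the gene's own promoter. A single transgenic line stood for the genotype. Nothing in the labels tells whether the 3 libraries of a group stem from different plants, and the p-values below therefore refer to the spread between libraries, which may be technical. Time after the shift and time of day cannot be told apart within a line.

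In plants the calmodulin-like family is much larger than that of the calmodulins themselves, and its members differ in the number of calcium-binding loops. Touch, wounding, cold, oxygen shortage and pathogens raise cytosolic calcium within minutes, and many CML transcripts are known to rise soon after. CML12 and CML24 were found as touch-induced genes. CML37 and CML42 act on opposite sides of jasmonate-dependent defence against insects, the first promoting and the second damping it. CML38 belongs to the core response to low oxygen, CML39 acts in early seedling growth, CML41 promotes the closing of plasmodesmata during immunity, CML43 was linked to the hypersensitive response in resistance to Pseudomonas syringae, and CML47 limits the build-up of salicylic acid.

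Libraries held 23876651 to 36291942 counts in genes, so that 3 counts, the smallest level treated as measurable in a library, equalled 0.0845 to 0.150 CPM. CPM, the usual unit of counts relative to sequencing depth, were computed after TMM scaling of library sizes. RPS4 itself, the check of the labels, stood at 772 to 995, 1893 to 2604 and 665 to 781 CPM in 35S:RPS4 at 0 h, 4 h and 8 h, and at 12.2 to 20.1 CPM in the 9 Col-0 libraries. The leaf markers RBCS1A, LHCB1.3, PSBO1, RCA and CA1 were abundant in every library, with sums of 8166 to 42898 CPM, while the flower genes AP3 and AG had 56 and 312 counts over the 18 libraries. PYK10, from the same root and flower list, had 8140 counts and up to 74.2 CPM in a library. Its group means ran from 3.23 ± 0.303 CPM in Col-0 at 8 h to 50.1 ± 21.8 CPM in 35S:RPS4 at 0 h. At 0 h, Col-0 replicate 1 stood apart from Col-0 replicates 2 and 3 in 15 jasmonate genes, whose mean was 4.54 on the log2 CPM scale against 7.62 and 7.57. This list was taken because its level differed between Col-0 libraries at 0 h in earlier results, so the difference is no independent observation. In what follows a gene is called higher or lower when edgeR's quasi-likelihood test gave a Benjamini-Hochberg adjusted p under 0.01 over the genes tested together with an absolute log2 fold change (log2FC) above 1. Group values are means ± SD, log2FC are given ± SE, and n is 3 libraries a group throughout.

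Per the TAIR10.1 annotation, the 10 genes lie on the 5 nuclear chromosomes and code for proteins of 146 (CML40) to 324 residues (CML12). A search for the canonical EF-hand loop pattern found 6 loops in CML12, 4 in CML24, 3 in each of CML37, CML38, CML39, CML41, CML42 and CML43, 2 in CML47 and 1 in CML40. CML42 and CML43 were the most alike of the 10, with 80.9% identity over 178 aligned residues, although they lie on chromosomes 4 and 5. CML38 and CML39 followed with 79.87% over 154 residues. These 2 genes are also neighbours on the minus strand of chromosome 1 (28766750 to 28768138 and 28765254 to 28765866), 883 bp apart with no gene between them. CML12 (chromosome 2, 17137037 to 17139700, plus strand) starts 37 bp after AT2G41090, another calmodulin-like gene, and ends 482 bp before the calmodulin gene CAM2. Of the distinct 50-base stretches in its exons, 3.66% occurred more than once in the genome, and 0% of those in the other 9 genes. Repeats within CML12 itself are included in this share, so it does not give the part shared with other genes. AT2G41090 stood at 2199.7 ± 204 CPM in 35S:RPS4, while Col-0 had 529.5 ± 249 CPM at 4 h (log2FC 2.05 ± 0.28, adjusted p = 9.04e-06) and did not differ at 8 h beyond its error (0.03 ± 0.27).

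Calmodulin-binding transcription activators (CAMTAs) recognise CGCG and CGTG cores, and WRKY factors recognise the W-box core TTGAC. The 250 bases before the annotated start of each gene were searched for these letters on both strands. CGCG was present before CML24 and CML40, thus in 2 of 10 genes against 10.1% of 27443 protein-coding genes, and its longer form CGCGTT before CML24 alone (1 of 10, against 2.59%). CGTG was present before CML12, CML24 and CML39 (3 of 10, against 45.6%), and TTGAC before CML38, CML40 and CML42 (3 of 10, against 44.9%). No match stood before CML37, CML41, CML43 or CML47. The window of CML12, unlike those of the other genes, overlaps 2 exons of other genes, so it is not upstream sequence alone. The windows of CML24 and CML40, with the CGCG matches, and those of the similar pair CML42 and CML43, whose transcripts followed different time courses, are printed 5′ to 3′ on the gene's strand from TAIR10.1 with every match of CGCG, CGTG or TTGAC on either strand in capitals.
CML24, chr5:14999620-14999869, minus strand: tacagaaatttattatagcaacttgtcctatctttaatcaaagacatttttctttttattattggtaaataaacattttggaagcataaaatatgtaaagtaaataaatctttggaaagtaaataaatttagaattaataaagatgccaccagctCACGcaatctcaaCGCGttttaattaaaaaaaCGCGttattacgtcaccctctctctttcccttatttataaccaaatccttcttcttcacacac
CML40, chr3:295774-296023, plus strand: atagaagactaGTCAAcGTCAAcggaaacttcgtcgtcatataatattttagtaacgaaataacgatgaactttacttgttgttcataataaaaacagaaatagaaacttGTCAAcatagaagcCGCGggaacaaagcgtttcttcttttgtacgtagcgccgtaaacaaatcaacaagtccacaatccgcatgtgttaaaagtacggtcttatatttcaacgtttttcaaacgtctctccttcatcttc
CML42, chr4:11134076-11134325, minus strand: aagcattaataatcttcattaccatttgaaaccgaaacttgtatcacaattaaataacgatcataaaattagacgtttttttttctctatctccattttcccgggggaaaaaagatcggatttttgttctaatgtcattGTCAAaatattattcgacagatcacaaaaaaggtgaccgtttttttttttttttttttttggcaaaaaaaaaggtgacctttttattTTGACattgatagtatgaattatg
CML43, chr5:17916743-17916992, plus strand: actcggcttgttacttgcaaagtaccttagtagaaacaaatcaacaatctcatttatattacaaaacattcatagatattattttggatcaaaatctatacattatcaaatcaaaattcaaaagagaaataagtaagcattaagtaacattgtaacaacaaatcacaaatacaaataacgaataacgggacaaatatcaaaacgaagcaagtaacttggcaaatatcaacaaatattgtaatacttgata

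The CGCG matches of CML24 begin 82 and 63 bases before its start, and each lies inside a stretch that reads CGCGTT on both strands, which gave 4 matches of the longer form. Its CGTG match, as the complement CACG, begins at 95 bases. In CML40 the CGCG match begins 126 bases before the start, and TTGAC occurs as its complement GTCAA at 239, 233 and 140 bases. CML42 holds TTGAC at 24 bases and GTCAA at 111 bases before its start. The window of CML43 holds none of the 4 motifs, although its protein is 80.9% identical to that of CML42. These matches describe the letters of a short window and say nothing of binding.

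After 4 h at 19 °C, each of the 10 genes was higher in 35S:RPS4 than in Col-0, where 16.6% of the genes tested were called higher and 12.4% lower. The 3 libraries of 35S:RPS4 lay above the 3 of Col-0 for every one of them. Of the genes tested, 31.9% were likewise wholly above and 31.4% wholly below. The median log2FC was 8.32, against -0.01 over the genes tested, and the values spanned from 1.93 for CML24 to 10.93 for CML37. This count and median include CML39 and CML43, which had 5 and 1 counts in Col-0 at 4 h and could hardly be called lower. The sum over the 10 genes was 10654 ± 1564 CPM in 35S:RPS4, while Col-0 had 49.5 ± 10.3 CPM, and CML12 made up 80.9% of the 35S:RPS4 sum.

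**Figure D1:**
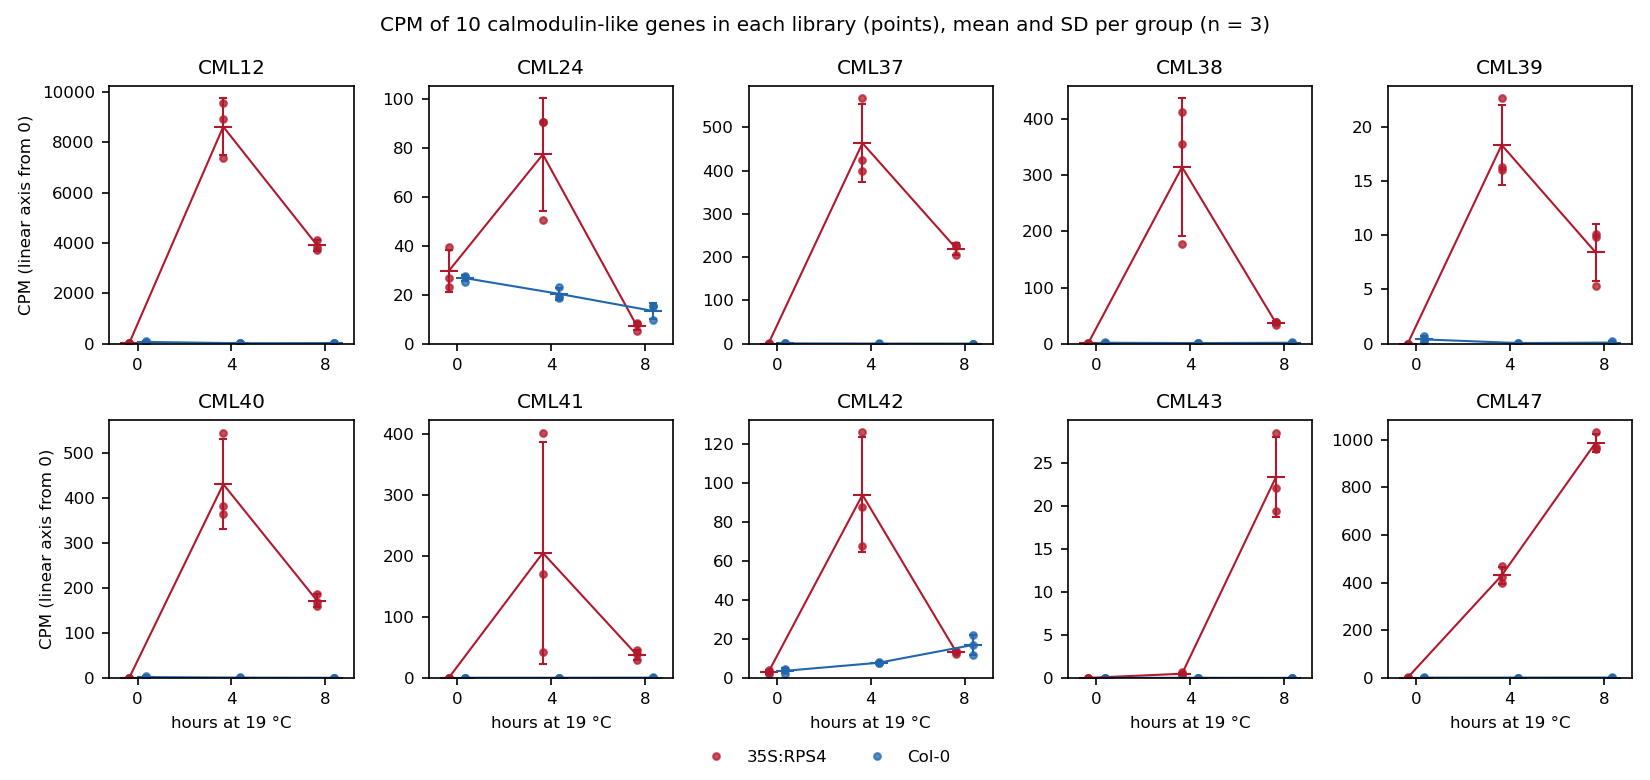
CPM of each gene in every library (points, linear axes that start at 0 and differ between panels) against hours at 19 °C, with lines through group means and bars of 1 SD (n = 3). 35S:RPS4 is drawn in red just left of Col-0 in blue. CML12, CML37, CML38, CML39, CML40 and CML41 peak at 4 h in red while blue stays near 0, CML24 and CML42 drop to or below the blue level at 8 h, and CML43 and CML47 are highest at 8 h.

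CML12 was the most abundant of the 10 in shifted 35S:RPS4 leaves. At 4 h it had 7363, 8939 and 9556 CPM in 35S:RPS4, against 11.1, 16.6 and 26.3 CPM in Col-0 (log2FC 8.90 ± 0.62, adjusted p = 3.61e-09). At 8 h the levels were 3851, 3720.5 and 4138 CPM in 35S:RPS4, against 15.2, 13.1 and 37.7 CPM in Col-0 (log2FC 7.47 ± 0.59, adjusted p = 4.59e-09). The lowest 35S:RPS4 library thus stood far above the highest Col-0 library at both times, and within 35S:RPS4 the 8 h mean was 45.3% of the 4 h mean.

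CML37, a positive regulator of jasmonate-dependent defence, rose from a level close to the counting floor. It had 399, 424 and 567 CPM in 35S:RPS4 at 4 h, against 0.0346, 0.559 and 0.0972 CPM in Col-0 (log2FC 10.93 ± 0.64, adjusted p = 3.86e-10). The 8 h levels were 225, 204 and 229 CPM in 35S:RPS4, against 0.0647, 0.0329 and 0.195 CPM in Col-0 (log2FC 11.07 ± 0.68, adjusted p = 2.17e-10). Between the shifted times the line difference did not move beyond its error (0.14 ± 0.91, adjusted p = 0.917), at a Col-0 level that rested on 21 counts over the 4 h group and 9 counts over the 8 h group.

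CML40, whose function is little known, followed nearly the same course. It had 382, 365 and 546 CPM in 35S:RPS4 at 4 h, against 0.381, 0.987 and 0.421 CPM in Col-0 (log2FC 9.48 ± 0.73, adjusted p = 1.04e-08). After 8 h there were 168, 159 and 187 CPM in 35S:RPS4, against 0.0971, 0.164 and 0.358 CPM in Col-0 (log2FC 9.67 ± 0.77, adjusted p = 5.7e-09). LYK2, a gene of a LysM receptor-like kinase, overlaps exons of CML40 on the opposite strand. LYK2 had 312, 322 and 623 counts in 35S:RPS4 at 4 h and 1 to 2 counts in Col-0, against 7647, 9345 and 13517 counts and 11 to 30 counts for CML40, and as the strand setting of the counting is not given, reads of the overlap could not be assigned to a strand. The same limit holds for AT3G01055 on the opposite strand of CML40, for AT2G09220 and AT2G41105 opposite CML12, and for AT5G37760 opposite CML24.

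CML38 and CML39, the adjacent pair, were both higher in 35S:RPS4 at 4 h and at 8 h. CML38 had 177, 412 and 355 CPM in 35S:RPS4 at 4 h, against 0.554, 1.78 and 0.745 CPM in Col-0 (log2FC 8.25 ± 0.78, adjusted p = 1.53e-07). After 8 h the level was down to 32.6, 38.7 and 39.0 CPM in 35S:RPS4, against 0.745, 0.822 and 3.22 CPM in Col-0 (log2FC 4.52 ± 0.68, adjusted p = 1.08e-05). The lowest 35S:RPS4 library at 8 h still stood well above the highest Col-0 library.

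CML39 was less abundant, with 16.3, 22.6 and 16.0 CPM in 35S:RPS4 at 4 h, against 0, 0.0987 and 0.0648 CPM in Col-0 (log2FC 8.26 ± 0.76, adjusted p = 3.32e-07). The level at 8 h was 10.1, 9.78 and 5.35 CPM in 35S:RPS4, against 0.0324, 0 and 0.260 CPM in Col-0 (log2FC 6.36 ± 0.70, adjusted p = 8.03e-07). Set against 35S:RPS4 at 0 h, where the 3 libraries had 0 counts, its level was at least 511-fold higher at 4 h and at least 232-fold higher at 8 h, taking 3 counts over the group as the floor. At 8 h CML38 was left with 11.7% of its mean level at 4 h and CML39 with 45.9%. Per kilobase of exon the levels at 4 h were 317 ± 124 CPM for CML38 and 29.9 ± 6.08 CPM for CML39, without overlap between the libraries.

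CML41, the plasmodesmal member, varied most of the 10 genes between the 35S:RPS4 libraries at 4 h. It had 42.6, 403 and 170.1 CPM in 35S:RPS4 at 4 h, against 0, 0.461 and 0.194 CPM in Col-0 (log2FC 9.83 ± 0.99, adjusted p = 3.11e-07). The highest of these 35S:RPS4 libraries was 9.46 times the lowest, whereas the ratio was 1.18 (CML47) to 2.33 (CML38) in the other 9 genes. Replicate 1 was also the lowest of the 3 for CML12, CML24, CML37, CML38, CML42 and CML47. At 8 h CML41 had 29.0, 38.5 and 45.6 CPM in 35S:RPS4, against 0.0324, 0.0658 and 1.11 CPM in Col-0 (log2FC 6.54 ± 0.88, adjusted p = 3.3e-06).

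CML24, the touch gene TCH2, rose least and did not stay high. At 4 h it had 50.6, 90.9 and 90.8 CPM in 35S:RPS4, against 18.6, 19.4 and 23.1 CPM in Col-0 (log2FC 1.93 ± 0.25, adjusted p = 6.87e-06). At 8 h it had 5.38, 8.65 and 7.91 CPM in 35S:RPS4, against 9.48, 15.3 and 15.3 CPM in Col-0. The 3 libraries of 35S:RPS4 then lay below those of Col-0, as they did for 42.2% of the genes tested. The log2FC was -0.86 ± 0.26, with an adjusted p of 0.00581 that passed its limit while the fold change did not. The value went past the fold limit on leaving out Col-0 8 h replicate 1 (-1.06, adjusted p = 0.00163). It was -1.09 (adjusted p = 0.00107) when library totals alone set the scale and -1.0 without 35S:RPS4 8 h replicate 2. CML23, its closest relative in the family by protein sequence (77.07% over 157 residues), had 7.06 ± 0.0568 CPM in 35S:RPS4, while Col-0 had 1.64 ± 0.354 CPM at 4 h, and at 8 h it had 1.3 ± 0.702 CPM in 35S:RPS4 beside 1.12 ± 0.485 CPM in Col-0.

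CML42, the gene that damps jasmonate-dependent defence, was higher at 4 h only. It had 67.9, 87.8 and 126 CPM in 35S:RPS4 at 4 h, against 8.07, 7.40 and 7.87 CPM in Col-0 (log2FC 3.59 ± 0.31, adjusted p = 4.26e-08). At 8 h the lines overlapped, with 13.2, 12.5 and 13.8 CPM in 35S:RPS4 and 16.9, 21.9 and 11.9 CPM in Col-0 (log2FC -0.36 ± 0.28, adjusted p = 0.248). The change of the line difference between 4 h and 8 h was itself past the thresholds (-3.96 ± 0.41, adjusted p = 6.83e-07).

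CML43, its near relative and the gene linked to the hypersensitive response, came late. It had 0.450, 0.626 and 0.364 CPM in 35S:RPS4 at 4 h, against 0, 0.0329 and 0 CPM in Col-0. That is 34 counts against 1, a ratio of 43.6 with an exact binomial 95% interval of 7.31 to 1771 that covers counting error only (adjusted p = 7.15e-05). After 8 h CML43 had 28.5, 19.4 and 22.1 CPM in 35S:RPS4, that is 636, 690 and 623 counts, and no count in the 3 Col-0 libraries. The 8 h level in 35S:RPS4 was at least 695-fold higher than that of Col-0 (adjusted p = 1.16e-09).

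CML47, which limits salicylic acid, also had its highest level at 8 h. It had 399, 422 and 469.6 CPM in 35S:RPS4 at 4 h, against 1.11, 1.22 and 1.52 CPM in Col-0 (log2FC 8.38 ± 0.43, adjusted p = 6.78e-11). At 8 h it had 963, 969.9 and 1031 CPM in 35S:RPS4, against 1.10, 0.953 and 2.08 CPM in Col-0 (log2FC 9.48 ± 0.44, adjusted p = 9.92e-12). Its libraries were the closest to each other of the 10 genes at 4 h.

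At 8 h, then, 8 of the 10 genes were higher in 35S:RPS4 and none lower, where 26.6% of the genes tested were called higher and 30.1% lower. The median log2FC was 7.0, against -0.10 over the genes tested. Both the count and the median include CML39 and CML43, which had 9 and 0 counts in Col-0 at 8 h and could hardly be called lower. The 5 mesophyll markers were each lower in 35S:RPS4 at this time, with summed levels of 8166 to 9358 CPM against 24578 to 34491 CPM in Col-0, while at 4 h none was called (26449 to 30456 against 29795 to 31500 CPM). In leaf RNA, fewer cells of a type and less RNA per cell cannot be told apart, and the part of this shift in the 8 h values of the CML genes was not tested. The defining guard cell markers FAMA, MYB60 and KAT1 summed to 40.0 to 59.1 CPM in 35S:RPS4 and 37.5 to 47.3 CPM in Col-0 at 8 h, with 1 called higher and 1 lower.

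**Figure D2:**
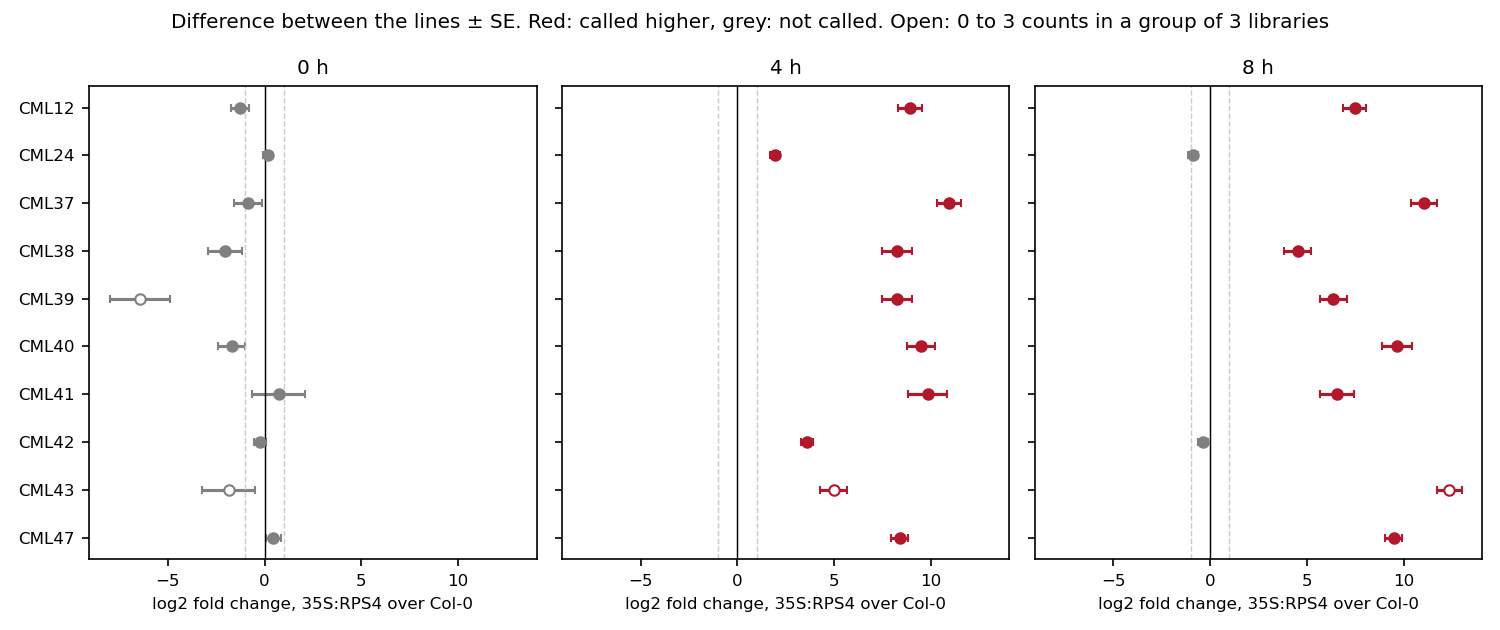
log2 fold change of 35S:RPS4 over Col-0 for each gene at 0 h, 4 h and 8 h, as fitted by edgeR, with bars of 1 SE. Red marks genes called higher, grey genes not called, dashed lines the fold limit and open symbols fits against a group with 0 to 3 counts, which depend on the prior count. At 4 h every gene is red, at 8 h CML24 (-0.86) and CML42 (-0.36) are grey, and at 0 h no gene is called.

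Within 35S:RPS4, the shift was followed by a rise of each of the 10 genes at 4 h over 0 h (background 18.3% higher and 14.8% lower), from 1.38 ± 0.25 for CML24 to 10.41 ± 0.62 for CML37 among the genes with counts in the 3 unshifted libraries. At 8 h 9 genes remained above 0 h (background 26.5%) and CML24 was below it (-2.02 ± 0.26, adjusted p = 2.1e-06, background 29.7% lower), with 5.38, 8.65 and 7.91 CPM at 8 h against 23.1, 26.9 and 39.4 CPM at 0 h. CML42 stayed higher at 8 h than at 0 h in 35S:RPS4 (2.11 ± 0.31, adjusted p = 8.24e-06), with 12.5 to 13.8 CPM against 2.0 to 4.0 CPM, a change near that of Col-0 over the same time (2.21 ± 0.30).

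From 4 h to 8 h in 35S:RPS4 the genes went in opposite directions. CML43 (5.59 ± 0.38, adjusted p = 4.43e-08) and CML47 (1.20 ± 0.30, adjusted p = 0.00229) were higher at 8 h, where 13.7% of the genes tested were called higher. CML24 (-3.40 ± 0.27), CML38 (-3.10 ± 0.59), CML42 (-2.84 ± 0.30) and CML41 (-2.45 ± 0.64) were lower, where 25.1% of the genes were, with adjusted p of 1.65e-08, 0.000225, 3.4e-07 and 0.00303. The call of CML41 was lost on leaving out 35S:RPS4 4 h replicate 2 (-1.50, adjusted p = 0.0441), without 8 h replicate 1 (-2.29) or 2 (-2.46) and in DESeq2 (-2.38), and that of CML47 was lost without 35S:RPS4 4 h replicate 1 (1.15, adjusted p = 0.0103). CML12, CML37, CML39 and CML40 had values of -1.08 to -1.33 with adjusted p of 0.0227 to 0.0501, and thus no call. The 3 libraries at 8 h lay below the 3 at 4 h for each of them, as they did for 40.7% of the genes tested. Limma voom called CML37 (-1.06), CML39 (-1.17) and CML40 (-1.31) lower, edgeR called CML12, CML37 and CML40 lower on leaving out Col-0 0 h replicate 1 (adjusted p of 0.00853, 0.00502 and 0.00473), and it called CML37 and CML40 on leaving out Col-0 0 h replicate 2. As a share of the 4 h mean, the 8 h mean was 47.4% for CML37, 45.9% for CML39, 45.3% for CML12, 39.8% for CML40, 18.4% for CML41, 14.0% for CML42, 11.7% for CML38 and 9.44% for CML24, and it was 230% for CML47 and 4870% for CML43. Over the genes tested the median was -0.21 on the log2 scale.

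**Figure D3:**
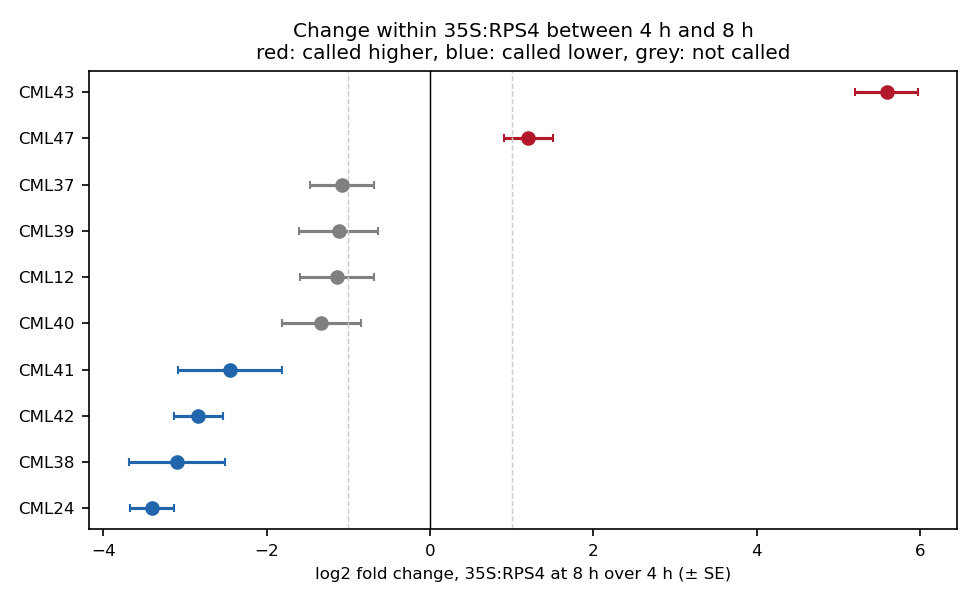
log2 fold change in 35S:RPS4 of 8 h over 4 h for each gene, ordered by value, with bars of 1 SE. Red marks genes called higher at 8 h, blue genes called lower, grey genes not called, and dashed lines the fold limit. CML43 (5.59) and CML47 (1.20) lie to the right of 0 and the other 8 genes to the left, down to CML24 (-3.40).

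The similar pair CML42 and CML43 thus gave opposite time courses in the same libraries. CML42 in 35S:RPS4 ran to 67.9 to 126 CPM at 4 h, then 12.5 to 13.8 CPM at 8 h, while CML43 had 0.364 to 0.626 CPM at 4 h and 19.4 to 28.5 CPM at 8 h. Per kilobase of exon, CML42 was above CML43 at 4 h (95.8 ± 30.3 and 0.475 ± 0.132 CPM) and below it at 8 h (13.4 ± 0.665 and 23.1 ± 4.61 CPM), with no overlap between the libraries of the 2 genes at either time. The difference between the 2 genes was not tested as such. None of the 50-base exon stretches of either gene occurred elsewhere in the genome.

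Whether the lines responded differently to the shift was asked by the interaction of line and shift, that is, the change in 35S:RPS4 minus the change in Col-0. At 4 h it was past the thresholds for 9 genes (background 15.0% higher and 10.2% lower), with CML43 not called at an adjusted p of 0.0291, and its values spanned from 1.78 ± 0.35 for CML24 to 11.79 ± 0.96 for CML37 in genes with counts in each group. The call of CML41 at 4 h (9.11 ± 2.17, adjusted p = 0.00278) was lost when Col-0 0 h lacked replicate 2 (8.89) or 3 (9.07) and in limma voom (9.76, adjusted p = 0.0308), while DESeq2 (6.20) and limma voom (4.82) called CML43. With 0 h replicate 1 alone for unshifted Col-0, an alternative added after seeing the data, 6 genes were called at 4 h and CML37 (8.73), CML38 (6.83) and CML41 (8.53) were not, and 4 genes were called at 8 h, without CML37 (8.86), CML38 (3.11) and CML43 (12.35). At 8 h it was past the thresholds for 7 genes (background 24.9% higher and 27.3% lower), and not for CML24 (-1.02 ± 0.36, adjusted p = 0.0182), CML41 (5.82 ± 1.91, adjusted p = 0.0125) and CML42 (-0.10 ± 0.42, adjusted p = 0.85). CML41 was called there in DESeq2 (5.85), without a filter (5.81) and without Col-0 8 h replicate 3 (8.74) or 35S:RPS4 4 h replicate 1 or 2 (5.82 in both), and CML24 in DESeq2 (-1.02), with library totals alone (-1.14) and without Col-0 8 h replicate 1 (-1.21) or 35S:RPS4 4 h replicate 1 (-1.02). CML43 was called at 8 h (adjusted p = 0.00083), but its fit rested on 1 count in Col-0 at 0 h and the call was gone without that library, Col-0 0 h replicate 3 (12.36, adjusted p = 1). The difference between the line effects at 8 h and at 4 h was past the thresholds for CML42 (-3.96 ± 0.41), CML38 (-3.73 ± 0.93) and CML24 (-2.79 ± 0.36), where 22.9% of the genes tested were called lower and 13.3% higher. The call of CML38 was lost without Col-0 8 h replicate 3 (-2.70, adjusted p = 0.0275). CML43 had 7.39 ± 2.29 with an adjusted p of 0.0149, and DESeq2 and limma voom called it.

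At 0 h, before the shift, none of the 10 genes was called between the lines (background 0.00999% higher and 0% lower), while 4 of them had an unadjusted p under 0.05 (CML12, CML38, CML39 and CML40), as had 1923 of the 20023 genes tested. DESeq2 called 1 of the 10, CML39, among 4 higher and 71 lower genes of the table, and limma voom called 0, with 1 higher and 0 lower in the table. CML39 had 0, 0 and 0 CPM in 35S:RPS4, against 0.139, 0.299 and 0.734 CPM in Col-0, which is 0 counts against 33 and at least 10.6-fold lower (edgeR adjusted p = 0.167, DESeq2 adjusted p = 0.00296). CML12 had 26.3, 22.0 and 35.3 CPM in 35S:RPS4, against 23.6, 105 and 75.1 CPM in Col-0 (log2FC -1.28 ± 0.45, adjusted p = 0.398). CML38 had 0.127, 0.330 and 0.699 CPM in 35S:RPS4, against 0.139, 3.19 and 1.39 CPM in Col-0 (-2.06 ± 0.88, adjusted p = 0.485), and CML40 had 0.508, 0.330 and 0.810 CPM in 35S:RPS4, against 0.278, 4.32 and 0.734 CPM in Col-0 (-1.69 ± 0.70, adjusted p = 0.475). In CML12, CML24, CML37, CML38, CML39, CML40, CML41 and CML47 the lowest Col-0 library at 0 h was replicate 1, the library in which the 15 jasmonate genes were also lowest. The 15 genes had means of 5.32, 3.95 and 5.35 in 35S:RPS4 and 4.54, 7.62 and 7.57 in Col-0 on the log2 CPM scale, and 8 cold-response genes had 2.22, 2.14 and 2.71 in 35S:RPS4 and 2.27, 4.22 and 3.26 in Col-0. When replicate 1 alone stood for unshifted Col-0, an alternative chosen after seeing the data, the log2FC were 0.24 for CML12, 2.20 for CML37, 1.41 for CML38 and 0.98 for CML40. Both lists were taken because their level differed between Col-0 libraries at 0 h in earlier results. The part of the jasmonate and cold levels in the unshifted values was not tested.

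**Figure D4:**
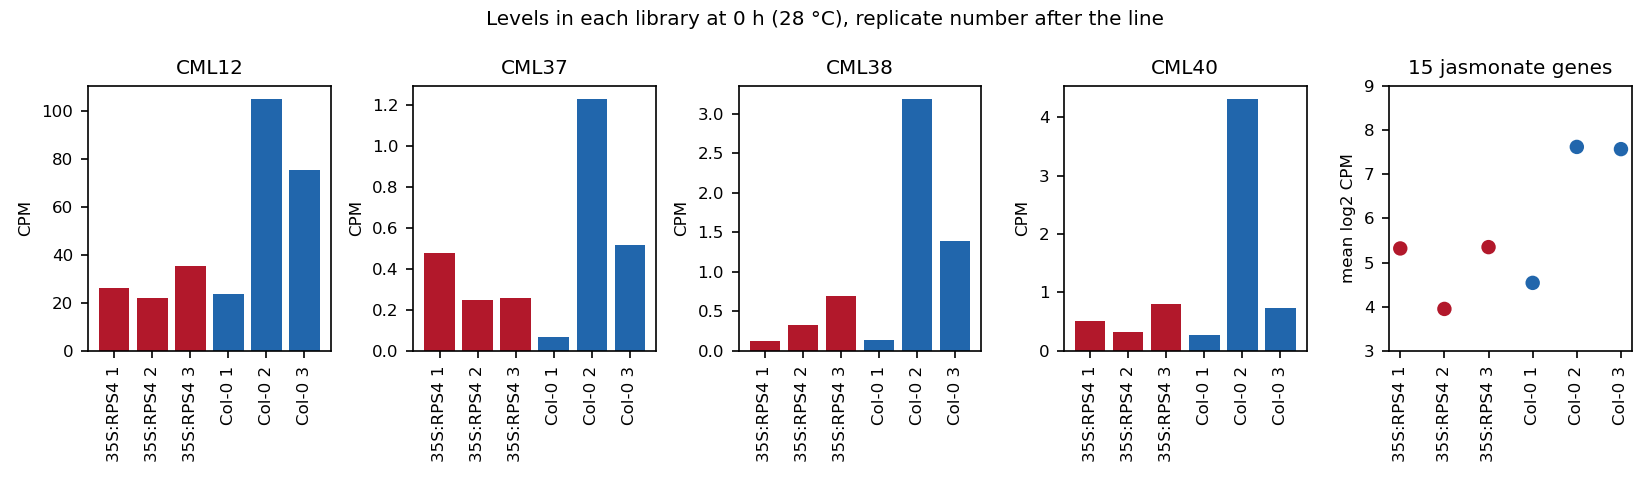
Levels in the 6 libraries at 0 h, with 35S:RPS4 in red at the left and Col-0 in blue at the right and replicate numbers under the axis: CPM of CML12, CML37, CML38 and CML40 as bars from 0, and the mean log2 CPM of 15 jasmonate genes as points on an axis that does not start at 0. Col-0 replicate 1 is the lowest Col-0 library in each panel, for CML12 at 23.6 CPM beside 105 and 75.1 CPM. The jasmonate list was taken because its level differed between Col-0 libraries at 0 h in earlier results.

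In Col-0, 1 of the 10 genes was called at 4 h against 0 h, 4 at 8 h against 0 h and 1 at 8 h against 4 h. At 4 h CML12 was lower than at 0 h, with 11.1, 16.6 and 26.3 CPM against 23.6, 105 and 75.1 CPM (log2FC -1.91 ± 0.46, adjusted p = 0.00569), and no other gene was called (background 3.87% higher and 4.79% lower). Replicate 1 at 0 h lay within the range of the 4 h libraries. The call was lost without Col-0 0 h replicate 2 or 3 or without Col-0 4 h replicate 1 or 2 (values of -1.45 to -1.87), and the log2FC was -0.39 when 0 h replicate 1 alone stood for unshifted Col-0.

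At 8 h in Col-0, CML42 was higher than at 0 h, with 16.9, 21.9 and 11.9 CPM against 4.24, 4.55 and 2.09 CPM (log2FC 2.21 ± 0.30, adjusted p = 1.52e-05, background 10.5%). It was also higher than at 4 h, where it had 8.07, 7.40 and 7.87 CPM (1.12 ± 0.29, adjusted p = 0.0074, background 4.40% higher and 4.88% lower), and at 4 h over 0 h the value was 1.10 ± 0.30 with an adjusted p of 0.0124. The levels of CML42 in Col-0 thus did not overlap between the 3 times. Its call of 8 h over 4 h was lost in 8 of the 18 fits that left out a library, with values of 0.88 to 1.14. CML12 (-1.63 ± 0.46, adjusted p = 0.00749), CML24 (-1.0 ± 0.25, adjusted p = 0.00337) and CML40 (-3.10 ± 0.81, adjusted p = 0.00448) were lower at 8 h than at 0 h (background 11.8%). CML24 had 9.48, 15.3 and 15.3 CPM at 8 h against 25.3, 27.3 and 27.8 CPM at 0 h, without overlap, at a fold change right at the limit, and its value was -0.99 in DESeq2 and -0.91 with library totals alone, neither past the limit. CML12 had 15.2, 13.1 and 37.7 CPM at 8 h against 23.6, 105 and 75.1 CPM at 0 h, and its call was lost in 8 of 18 fits without a library, among them those without Col-0 0 h replicate 2 (-1.17, adjusted p = 0.0499) or 3 (-1.55, adjusted p = 0.0218). CML40 had 0.0971, 0.164 and 0.358 CPM at 8 h against 0.278, 4.32 and 0.734 CPM at 0 h. Its call was lost without Col-0 0 h replicate 2 (-1.26, adjusted p = 0.106) or 8 h replicate 2 (-2.96, adjusted p = 0.0204), and also in limma voom (-2.35). Without Col-0 8 h replicate 1 the calls of CML12 (-1.42), CML24 (-0.81) and CML40 (-2.76) were each lost.

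Compared per kilobase of exon, CML24 was first among the 10 genes in 35S:RPS4 at 0 h with 14.8 ± 4.24 CPM, followed by CML12 with 10.9 ± 2.66 CPM, and their libraries overlapped. In 35S:RPS4 at 4 h CML12 stood first with 3383 ± 444 CPM and did not overlap CML47, which came next with 398 ± 33.3 CPM. CML47, CML37, CML40, CML38, CML41 and CML42 then followed with each neighbour overlapping the next, down to 95.8 ± 30.3 CPM. At 8 h the order in 35S:RPS4 was CML12 (1532 ± 83.8 CPM), CML47 (915 ± 34.7), CML37 (159.7 ± 9.75) and CML40 (132 ± 11.1), none of which overlapped its neighbour, and CML24 came last with 3.64 ± 0.855 CPM. In Col-0 at 8 h CML42 stood first with 17.2 ± 5.11 CPM, overlapping CML12 with 8.63 ± 5.34 CPM, and CML43 had no count.

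Over the 18 libraries, the log2 CPM of CML12, CML37, CML38, CML39, CML40, CML41 and CML47 each correlated with the mean of the other 9 genes at a Pearson r of 0.944 to 0.984. CML42 (0.711), CML43 (0.686) and CML24 (0.124) were less alike. These values describe libraries that share groups and scaling. Among 8541 other genes with a symbol, the 5 whose log2 CPM followed the mean of the 10 genes most closely were VPS2.1 (r = 0.9954), NUDT7 (0.9929), RDUF1 (0.9914), BCS1 (0.9914) and SYP121 (0.9913). VPS2.1 is a subunit of the ESCRT membrane-sorting machinery, NUDT7 a Nudix hydrolase that restrains defence, RDUF1 a RING-type ubiquitin ligase, BCS1 an AAA-type ATPase of mitochondria and SYP121 a syntaxin in resistance to penetration by powdery mildew. NUDT7 had 5743 ± 609.7 CPM in 35S:RPS4, while Col-0 had 26.2 ± 0.891 CPM at 4 h. SYP121 stood at 1016 ± 182 CPM in 35S:RPS4, while Col-0 had 21.7 ± 2.98 CPM.

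The rest of the family was measured as a list of 46 genes, made up of the 7 calmodulins and 39 further calmodulin-like or centrin genes. Of the 39, 24 passed the filter, and 14 of them were higher in 35S:RPS4 at 4 h and none was lower, with a median log2FC of 2.04 (background 16.6% higher and 12.4% lower). At 8 h 13 were higher and 2 lower, with a median of 1.29 (background 26.6% higher and 30.1% lower), and at 0 h 0 were called. Among the 24, AT4G37010, CML11 and CML8 passed the filter only through shifted leaves of 35S:RPS4. Their group means in Col-0 were at most 0.325 CPM, so these genes could hardly be called lower, and the medians include them. AT5G39670 was among the genes with the largest log2FC, with 1372 ± 134 CPM in 35S:RPS4, while Col-0 had 1.31 ± 0.0952 CPM at 4 h (log2FC 10.03 ± 0.35, adjusted p = 1.36e-12) and at 8 h with 935 ± 66.8 CPM in 35S:RPS4 beside 1.04 ± 0.578 CPM in Col-0 (9.80 ± 0.35, adjusted p = 9.12e-13). AT2G41410 had 888 ± 78.9 CPM in 35S:RPS4, while Col-0 had 18.9 ± 5.00 CPM at 4 h (5.55 ± 0.27, adjusted p = 3.91e-11).

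AT4G37010, a centrin gene, resembled CML43 in its course, in 35S:RPS4 with 0.734 ± 0.315 CPM at 4 h, then 14.5 ± 1.28 CPM at 8 h, and 0 counts in Col-0 at both times. Its level in 35S:RPS4 was at least 21.8-fold higher at 4 h and at least 444-fold higher at 8 h. AT4G26470 had 24.3 ± 1.56 CPM in 35S:RPS4, while Col-0 had 0.870 ± 0.269 CPM at 8 h (4.80 ± 0.44, adjusted p = 3.13e-08). The 2 genes lower at 8 h were AT3G10190, with 0.233 ± 0.164 CPM in 35S:RPS4, while Col-0 had 2.31 ± 0.458 CPM (-3.21 ± 0.54, adjusted p = 4.11e-05), and CML30, with 1.69 ± 0.495 CPM in 35S:RPS4, while Col-0 had 6.38 ± 2.55 CPM (-1.90 ± 0.44, adjusted p = 0.000842).

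The calmodulins, the calcium sensors shared by most plant cells, had a smaller median log2FC than the 10 genes at 4 h and 8 h. The classes overlapped at 8 h, where CAM1, CAM2 and CAM3 lay above CML24 (-0.86) and CML42 (-0.36). No test was made between the classes. At 4 h 2 of 7 were higher in 35S:RPS4 and at 8 h 3 of 7, where 16.6% and 26.6% of the genes tested were. Those at 4 h were CAM2 (183 ± 15 CPM in 35S:RPS4, while Col-0 had 53.3 ± 3.88 CPM, log2FC 1.78 ± 0.24, adjusted p = 7.54e-06) and CAM3 (461 ± 61.8 CPM in 35S:RPS4 beside 208 ± 1.53 CPM in Col-0, 1.15 ± 0.20, adjusted p = 0.000154). CAM1 missed the fold limit at 4 h (0.97 ± 0.16, adjusted p = 6.8e-05), and it was higher at 8 h with 380.4 ± 2.90 CPM in 35S:RPS4, while Col-0 had 139 ± 24.9 CPM (1.45 ± 0.16, adjusted p = 3.08e-07). CAM2 (2.26 ± 0.24) and CAM3 (1.31 ± 0.21) stayed higher at 8 h. CAM4, CAM5, CAM6 and CAM7 were not called at either time, with log2FC of 0.34, 0.58, 0.27 and 0.29 at 4 h and of 0.55, -0.48, 0.46 and -0.11 at 8 h. The median log2FC of the 7 calmodulins was 0.58 at 4 h and 0.55 at 8 h. CAM2 lies next to CML12, whose log2FC were 8.90 and 7.47 at these times, and CAM1 is the gene next to CML24 on chromosome 5, 4846 bp away. CAM1 was higher at 8 h while CML24 was not, with log2FC of 1.45 and -0.86. Of the 6 CAMTA genes, whose products bind calmodulin, 3 were higher and none lower at 4 h, with the same counts at 8 h (background 16.6% and 26.6% higher).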

How the data were processed

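The series held 18 leaf RNA libraries, 3 in each of 6 groups of genotype and time. Per the labels, 2.5 µg of RNA was depleted of ribosomal RNA, primed with oligo-dT and sequenced paired-end. According to the submitters' processing notes, the authors used FastQC 0.11.2, TopHat2 2.0.10 and HTSeq with TAIR10, and they deposited raw counts per gene. The version and strand setting of HTSeq are not given in the sources used here. Of all reads tallied for a library, 48.5% to 49.2% were assigned to no gene, 0.252% to 0.369% were ambiguous and 1.96% to 2.85% had no unique place. Reads on the strand opposite a gene may be among those assigned to no gene. These summary lines were left out of library sizes and tests.

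Counts were analysed in R 4.3.3 with edgeR 4.0.16 (filterByExpr, TMM with factors of 0.797 to 1.15, quasi-likelihood test in a model with 1 mean per group). Benjamini-Hochberg adjustment ran over 20023 genes after 12655 had been removed, in 12 comparisons, with a call at an adjusted p under 0.01 and an absolute log2FC above 1. SE were derived from the fold change and its F statistic. DESeq2 1.42.0 and limma 3.58.1 (voom) served as alternatives, beside other scalings and filters, a looser threshold, a replicate block and leaving out each library. Bounds used 3 counts over a group as the floor, and intervals cover counting error only. No 2 libraries of a group were copies (chi-square per gene of 12.6 to 114). Exons, neighbours, upstream windows and proteins were read from RefSeq TAIR10.1 with Biopython 1.88, and figures were drawn with matplotlib 3.10.9 in Python 3.11.15. The tests were tried on simulated counts with 200 genes changed in 35S:RPS4 at 4 h, far fewer than the 3315 higher and 2490 lower called there. For the line difference at 4 h, edgeR recovered 78% of the 3-fold and 93% of the 8-fold changes. For the interaction at 4 h it recovered 59% and 88%. Named were every member, the 5 genes most alike by Pearson correlation, the 7 calmodulins and the 3 further family genes with the largest called log2FC of each sign at 4 h and 8 h between the lines. AT2G41090 and CML23 were added after their values were seen, as the nearest gene to CML12 and the closest relative of CML24. The members and lists were chosen with earlier results of these data known.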

Additional observations from a re-analysis of the deposited data

Results flagged for a closer look

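In 9 genes the response to 4 h at 19 °C differed between 35S:RPS4 and Col-0 by the edgeR interaction test. The change in 35S:RPS4 minus that in Col-0 was, on the log2 scale, 10.19 for CML12, 1.78 for CML24, 11.79 for CML37, 10.31 for CML38, 14.72 for CML39, 11.18 for CML40, 9.11 for CML41, 3.86 for CML42 and 7.93 for CML47. At 8 h the same test gave 8.75 for CML12, 11.93 for CML37, 6.58 for CML38, 12.83 for CML39, 11.36 for CML40, 14.22 for CML43 and 9.03 for CML47. The fitted values of CML39 and CML43 involve groups with 0 counts and depend on the prior count. The line difference at 8 h was smaller than that at 4 h by a test of the change itself for CML24 (-2.79), CML38 (-3.73) and CML42 (-3.96).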

How the results depend on the processing

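The 10 calls at 4 h and the calls of 35S:RPS4 at 4 h or 8 h against 0 h kept their number in each of the 18 fits that left out a library, with 10 to 10 genes in each case. These fits gave 0 to 0 genes between the lines at 0 h, 8 to 9 at 8 h, 5 to 9 for 35S:RPS4 at 8 h against 4 h, 8 to 9 and 6 to 9 for the interactions at 4 h and 8 h, and 2 to 3 for the change of the line effect. The Col-0 counts depended on single libraries, with 0 to 2 genes at 4 h against 0 h, 1 to 5 at 8 h against 0 h and 0 to 1 at 8 h against 4 h. DESeq2 called 1 gene between the lines at 0 h. For Col-0 at 4 h against 0 h, the table without a filter gave 2 genes, DESeq2 gave 3, the threshold of adjusted p under 0.05 gave 3, and the added alternative in which Col-0 0 h replicate 1 alone stood for unshifted Col-0 gave 0. At 8 h against 0 h Col-0 gave 2 genes with library totals alone and 2 in that added alternative, which also gave 4 genes for the interaction at 8 h. Deviations of same-numbered libraries from their group means had correlations of -0.154 to 0.221, and in 0 of 9 comparisons were all replicates above 0.1. Between the lines at 4 h they were 0.207, 0.00917 and 0.212 for replicates 1 to 3. A replicate block left 0 genes for Col-0 at 8 h against 4 h, where CML42 had 1.10 with an adjusted p of 0.0101. With the block CML41 was called in the interaction at 8 h (5.89, adjusted p = 0.00645).

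For the values that changed sign, the cause was not tested. In the added alternative, chosen after seeing the data, the lines at 0 h differed by 0.24 for CML12, 2.20 for CML37, 1.41 for CML38, 0.98 for CML40 and 0.00 for CML43. Col-0 at 4 h against 0 h then had 1.68 for CML37, 2.85 for CML38, 1.10 for CML40 and 1.81 for CML43, Col-0 at 8 h against 0 h 0.47 for CML37 and 0.00 for CML43, and the interaction at 8 h 0.11 for CML42. Library totals alone gave 0.01 for CML43 in Col-0 at 4 h against 0 h, and limma voom gave 0.04 for CML38 and -0.84 for CML41 there, -0.41 for CML41 in Col-0 at 8 h against 0 h and -0.38 for CML37 in the change of the line effect. Leaving out a library moved the 0 h line difference over -0.10 to 0.31 for CML24, -1.38 to 0.22 for CML37, -2.20 to 0.14 for CML40 and -2.33 to 0.00 for CML43. It moved Col-0 at 4 h against 0 h over -1.29 to 0.44 for CML38, -2.16 to 0.25 for CML40, -1.04 to 0.64 for CML41, -1.85 to 1.81 for CML43 and -0.08 to 1.16 for CML47. Col-0 at 8 h against 0 h ran over -1.01 to 1.07 for CML38, -2.00 to 1.47 for CML41, -2.33 to 0.00 for CML43 and -0.01 to 1.26 for CML47. Col-0 at 8 h against 4 h ran over -0.35 to 0.67 for CML12, -2.15 to 0.52 for CML37, -0.39 to 1.29 for CML38, -1.53 to 1.44 for CML39, -2.08 to 1.96 for CML41, -2.26 to 0.00 for CML43 and -0.32 to 0.31 for CML47. The interaction at 8 h ran over -0.34 to 0.17 for CML42, and the change of the line effect over -1.59 to 1.07 for CML37, -2.55 to 0.40 for CML39 and -0.38 to 0.83 for CML40.

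Library totals alone shifted the median log2FC of the genes tested to -0.43 at 4 h between the lines (-0.01 with TMM) and to -0.34 at 8 h (-0.10 with TMM), and the share of higher genes among those called at 4 h was 38.6%, against 57.1% with TMM. By Spearman correlation, 1 of the 5 most alike genes was shared with the Pearson ranking. Depth limits CML43 in Col-0 and CML39 in unshifted 35S:RPS4, where only bounds can be given.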
